A study of Mus musculus with 8 samples.

Results

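The 8 genes described here build and load the major histocompatibility complex (MHC) class II molecules of the mouse. They were chosen by symbol, as *H2-Aa*, *H2-Ab1*, *H2-Eb1*, *H2-DMa*, *H2-DMb1*, *H2-DMb2*, *Cd74* and *Ciita*, from the 53819 gene rows of the table. All 8 had enough counts to be among the 13722 genes tested. RNA was sequenced from bone marrow-derived macrophages (BMDM) of 4 female BALB/cJ mice aged 8 weeks. Marrow cells of each mouse were cultured separately and differentiated for 5 days with 25 ng/mL macrophage colony-stimulating factor (M-CSF). From every mouse, 1 culture then received 2.5 µM bilirubin and 1 received the vehicle, DMSO, for 48 h, and poly(A) RNA was sequenced. No culture received interferon gamma or any other stimulus that the labels name. Mice are numbered 1 to 4 by the culture number in the labels, and all comparisons are made within a mouse.

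MHC class II molecules show peptides from endocytosed material to CD4+ T cells. An alpha and a beta chain pair in the endoplasmic reticulum, where the invariant chain, the product of *Cd74*, fills their groove and directs them to endosomes. Lysosomal proteases then trim the invariant chain to a short fragment, and the DM heterodimer exchanges that fragment for peptide. Transcription of nearly all of these genes needs CIITA, a coactivator that binds no DNA itself and is recruited by factors on the X and Y boxes of their promoters. Macrophages express the set weakly at rest and strongly after interferon gamma, which induces *Ciita*.

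The promoter letters are shown first, because shared X and Y boxes are what ties these genes to CIITA. Promoters were taken from RefSeq on GRCm38.p6, from 250 bases before to 50 bases after each start, and 5 of the 8 genes had an entry, all but *H2-Ab1*, *Cd74* and *Ciita*. Each line is 57 bases, read 5′ to 3′ on the gene's strand, with capitals marking GATTGG (the Y box core) and, where it occurs, AACNGATG (part of the X box). The windows are chr17:34145113-34145169 (plus strand) for *H2-DMb2*, chr17:34153084-34153140 (plus strand) for *H2-DMb1*, chr17:34305762-34305818 (plus strand) for *H2-Eb1* and chr17:34287861-34287917 (minus strand) for *H2-Aa*.
H2-DMb2: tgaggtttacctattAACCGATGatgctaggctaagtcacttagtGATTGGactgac
H2-DMb1: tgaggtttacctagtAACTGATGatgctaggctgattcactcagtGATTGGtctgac
H2-Eb1: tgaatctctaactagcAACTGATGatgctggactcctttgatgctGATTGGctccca
H2-Aa: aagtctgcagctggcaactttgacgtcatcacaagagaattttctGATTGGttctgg

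In *H2-DMb2* and *H2-DMb1* the X letters begin 30 bases before the Y letters, and in *H2-Eb1* 29 bases before them. The Y letters begin 91 bases before the start of *H2-DMb2*, 62 before that of *H2-DMb1*, 60 before that of *H2-Eb1* and 49 before that of *H2-Aa*. The *H2-Aa* window held no exact AACNGATG, and where the *H2-DMb1* line has these letters the *H2-Aa* line reads aactttga. AACNGATG is only part of the X box, so a window without it may still hold an X box. *H2-DMa* has 2 start sites in the table, and neither window held the X letters. In 1 of them the Y letters begin 199 bases before the start, and the other held none before its start. Over 32851 promoters and both strands, GATTGG occurred in 16.11% and AACNGATG in 2.32%. The X letters followed by the Y letters within 40 bases occurred in 0.03044%, which is 10 promoters, 3 of them those of *H2-DMb1*, *H2-DMb2* and *H2-Eb1*, while another belongs to the class II gene *H2-Eb2*. The searched letters were chosen after these promoters had been read, so the shares describe the windows only. For the 3 genes with the pair, log2 fold changes with bilirubin were 0.86 for *H2-Eb1*, 0.04 for *H2-DMb2* and -0.09 for *H2-DMb1*, and each had an adjusted p of at least 0.267 in edgeR's quasi-likelihood test.

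Sequencing depth was 34142781 to 47071714 gene counts per library (median 40742225). The class II genes together took 1761 to 2508 of these counts per library, so most of them were measured with few reads. Expression is given in CPM, a gene's counts relative to the size of its library, after TMM scaling, and before scaling the 8 genes summed to 47.4 to 57.7 CPM. Treatment was tested by edgeR's quasi-likelihood method in a model that also holds the mouse, and p-values carry a Benjamini-Hochberg adjustment over all 13722 tested genes, called at 0.05. Values are given as the mean ± SD (n = 4 mice) and every fold change is bilirubin over vehicle.

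*Cd74* rose with bilirubin and *H2-DMa* fell, while the other 6 genes did not pass the threshold. That is 1 of 8 genes upregulated, where 4.49% of all tested genes were upregulated (616 genes), and 1 of 8 downregulated, where 3.04% of all tested genes were (417 genes). With library size alone as the scaling, the whole table gave 527 upregulated and 556 downregulated genes, and the calls of *Cd74* and *H2-DMa* were as with TMM. The median log2 fold change was 0.39 over the 8 genes, with a range from -0.22 to 1.84, and -0.00181 over all tested genes. Both the median and the upper end include *Ciita*, which met the filter on low counts only through the bilirubin libraries. The next highest value was 0.86, for *H2-Eb1*. The 2 medians are therefore given as a description only. Summed over the 8 genes, expression was 49.1 to 52.8 CPM in vehicle cultures and 48.7 to 58.1 CPM in bilirubin cultures, and these ranges overlap. The largest part of each sum is *H2-DMa*, the gene called lower, at 31.6 to 36.2 CPM in vehicle and 27.7 to 31.02 CPM with bilirubin. The overlap of the sums therefore does not show how the other genes moved. In bulk RNA, a change in the number of expressing cells and a change in RNA per cell cannot be told apart.

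**Figure D1:**
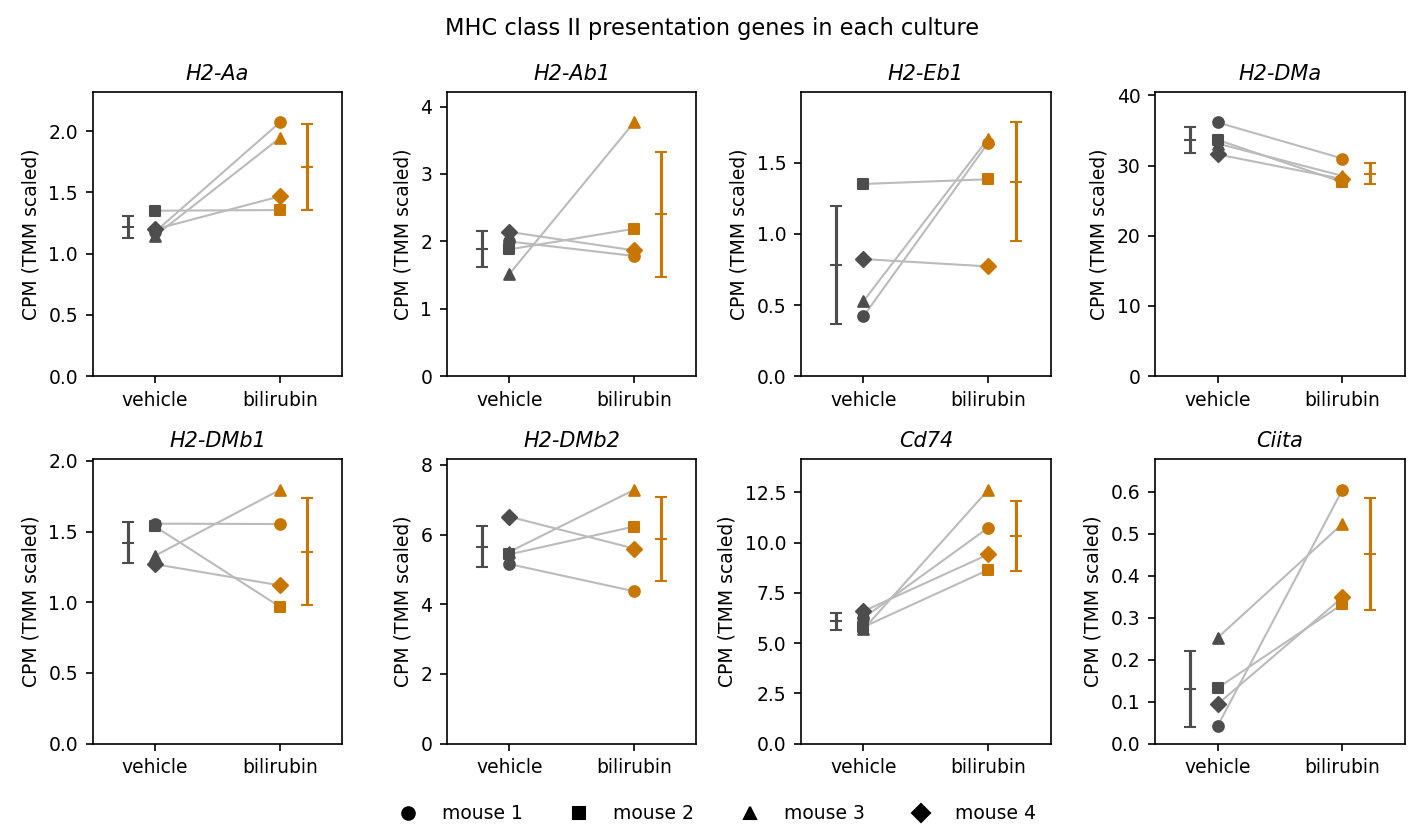
Expression of the 8 class II genes in each culture, in TMM-scaled CPM on linear axes that start at 0. Each symbol is 1 mouse, grey lines join the cultures of a mouse, and bars are the mean ± SD of 4 mice. *Cd74* and *Ciita* were higher with bilirubin in 4 of 4 mice and *H2-DMa* was lower in 4 of 4, while *H2-Ab1*, *H2-Eb1*, *H2-DMb1* and *H2-DMb2* moved in both directions.

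*Cd74* lies on chromosome 18 at 60936899 to 60945731 on the plus strand (GRCm39) and encodes the invariant chain, the chaperone of the class II chains. Its expression was 6.25, 5.80, 5.69 and 6.58 CPM for mice 1 to 4 in vehicle and 10.7, 8.64, 12.6 and 9.41 CPM with bilirubin. Every bilirubin culture was above every vehicle culture. The mean rose from 6.08 ± 0.415 to 10.3 ± 1.74 CPM, a log2 fold change of 0.76 (SE 0.12, 95% interval 0.49 to 1.03) with an adjusted p of 0.00581 in edgeR's quasi-likelihood test. The log2 changes of mice 1 to 4 were 0.78, 0.57, 1.14 and 0.51, with mouse 3 the highest. The gene passed under all 12 alternatives, each mouse left out included, with adjusted p between 3.91e-08 and 0.0431 and a log2 fold change between 0.62 and 0.84.

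*H2-DMa* (chromosome 17, 34338515 to 34358958, plus strand) encodes the alpha chain of the DM heterodimer, which edits the peptides of class II molecules. It was the most expressed of the 8 genes, at 36.2, 33.7, 33.1 and 31.6 CPM in vehicle and 31.02, 27.7, 28.5 and 28.1 CPM with bilirubin. Each bilirubin culture was below all vehicle cultures. The mean fell from 33.6 ± 1.89 to 28.8 ± 1.505 CPM, a log2 fold change of -0.22 (SE 0.05, 95% interval -0.33 to -0.12) with an adjusted p of 0.0219 in edgeR's quasi-likelihood test. The mice differed little, with log2 changes of -0.22, -0.28, -0.22 and -0.17. The direction was the same under all 12 alternatives, at -0.25 to -0.20, but the call was not. With edgeR the adjusted p rose to 0.109, 0.130 and 0.0838 when mouse 2, 3 or 4 was dropped and to 0.103 with a transcript length offset, and without the replicate block, that is with the pairing by mouse left out, it was 0.0519. In the annotation, 360 exonic bases of *H2-DMa* are shared with *Brd2* on the opposite strand. Whether the libraries keep strand is not given in the sources used here.

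The beta chains of DM come from a pair of neighbouring genes with similar sequences, *H2-DMb1* (chromosome 17, 34372046 to 34379204) and *H2-DMb2* (34362197 to 34370529). Over 1156 aligned bases of their leading transcripts 89.2% were identical, and 37.6% of the 31-base stretches of the *H2-DMb1* transcript also occur in *H2-DMb2* transcripts. The split of reads between them is therefore uncertain. *H2-DMb2* was at 5.15, 5.43, 5.50 and 6.51 CPM in vehicle and 4.37, 6.23, 7.28 and 5.599 CPM with bilirubin, higher in 2 of 4 mice, with a log2 fold change of 0.04 (SE 0.14, 95% interval -0.27 to 0.35). *H2-DMb1* was at 1.56, 1.54, 1.33 and 1.27 CPM in vehicle and 1.55, 0.969, 1.79 and 1.12 CPM with bilirubin, with a log2 fold change of -0.09 (SE 0.24, 95% interval -0.63 to 0.45). Neither gene separated the groups. Their adjusted p in edgeR's quasi-likelihood test was 0.915 for *H2-DMb2* and 0.889 for *H2-DMb1*, and the summed counts of both gave a log2 fold change of 0.02 with an adjusted p of 0.957.

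The 3 classical chains were all low. *H2-Aa* (chromosome 17, 34493404 to 34506798, minus strand) and *H2-Ab1* (34476663 to 34488393, plus strand) encode the alpha and beta chains of I-A, and *H2-Eb1* (34504236 to 34535648, plus strand) encodes the beta chain of I-E. *H2-Aa* was at 1.18, 1.35, 1.15 and 1.20 CPM in vehicle and 2.07, 1.36, 1.94 and 1.47 CPM with bilirubin. It was higher in 4 of 4 mice, by 0.79, 0.01, 0.74 and 0.28 on the log2 scale in mice 1 to 4, and the groups did not overlap, by a narrow margin. In mouse 2 the counts were 51 in vehicle and 49 with bilirubin, at TMM factors of 1.00 and 0.974. The rise in that mouse and the separation of the groups therefore rest on the TMM scaling. Its log2 fold change was 0.48 (SE 0.22, 95% interval -0.03 to 0.98) with an adjusted p of 0.276 in edgeR's quasi-likelihood test.

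*H2-Ab1* was at 2.00, 1.88, 1.51 and 2.14 CPM in vehicle and 1.78, 2.19, 3.76 and 1.87 CPM with bilirubin. Its bilirubin culture of mouse 3 stood above the rest, and the other 7 cultures overlapped. The log2 fold change was 0.30 (SE 0.27, 95% interval -0.32 to 0.92, adjusted p 0.610 in edgeR's quasi-likelihood test), without mouse 3 it was -0.05, and with the transcript length offset it was 0.02 (adjusted p 0.985 by edgeR). *H2-Eb1* was at 0.421, 1.35, 0.527 and 0.823 CPM in vehicle and 1.64, 1.38, 1.67 and 0.771 CPM with bilirubin. Mice 1 and 3 rose by 1.85 and 1.58 on the log2 scale, while mice 2 and 4 moved by 0.03 and -0.09, and the log2 fold change of 0.86 (SE 0.40, 95% interval -0.05 to 1.77) had an adjusted p of 0.267 in edgeR's quasi-likelihood test. None of the 3 chains passed under any of the 12 alternatives. The partner of *H2-Eb1* in I-E is *H2-Ea*, which was at 0.252, 0.477, 0.436 and 0.776 CPM in vehicle and 1.09, 0.914, 1.72 and 0.796 CPM with bilirubin. It was higher in 4 of 4 mice, with a log2 fold change of 1.24 (SE 0.39) and an adjusted p of 0.111 in edgeR's quasi-likelihood test, and it passed under 1 of 11 alternatives.

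*Ciita* (chromosome 16, 10297923 to 10347694, plus strand) encodes the class II transactivator and was close to the limit of detection. It had 2, 5, 11 and 4 counts in the vehicle libraries of mice 1 to 4 and 21, 12, 21 and 14 counts in the bilirubin libraries, or 0.0421, 0.132, 0.252 and 0.0941 CPM against 0.604, 0.332, 0.524 and 0.348 CPM. All bilirubin values were above all vehicle values, and the log2 changes were 2.83, 1.07, 0.93 and 1.47. The mean was 0.130 ± 0.0894 CPM in vehicle and 0.452 ± 0.133 CPM with bilirubin. The log2 fold change of 1.84 (SE 0.50, 95% interval 0.69 to 2.98) had an unadjusted p of 0.00597 and an adjusted p of 0.0683 in edgeR's quasi-likelihood test, so the gene did not pass. It met the filter on low counts only through the bilirubin libraries, and such a gene had to differ to be tested. Over the 11 alternatives that tested it the adjusted p was between 0.0414, with no filter, and 0.232, without mouse 4, and it passed with no filter only. In the annotation *Ciita* shares 329 exonic bases with *Dexi* on the opposite strand.

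**Figure D2:**
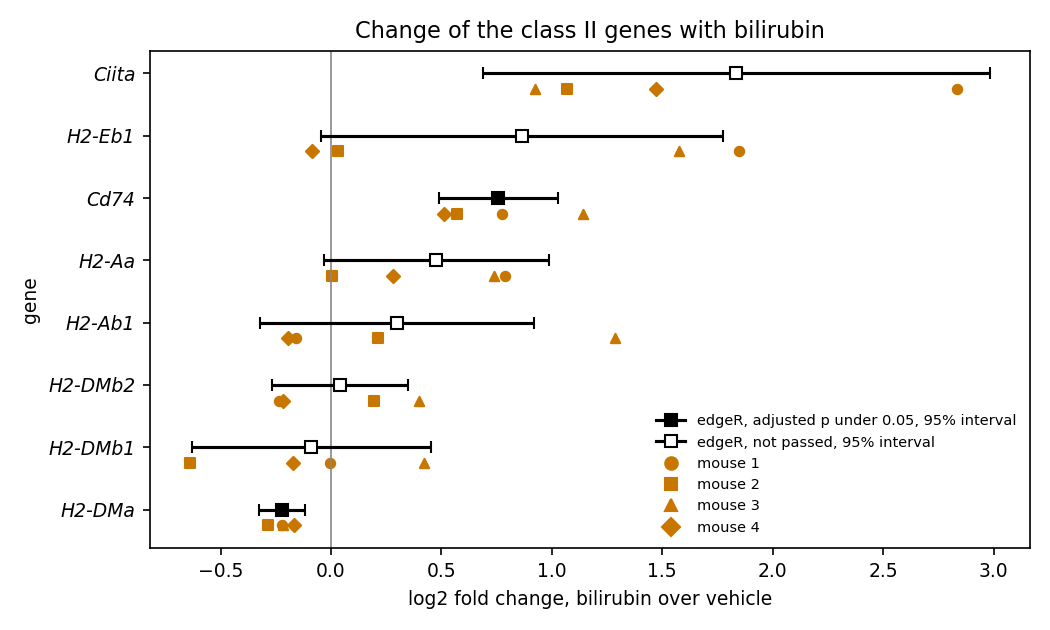
Log2 fold change of the 8 genes, bilirubin over vehicle. Squares and bars are edgeR's estimate with its 95% interval, filled where the adjusted p is under 0.05, and symbols are the change in each mouse. The interval excludes 0 for *Ciita*, *Cd74* and *H2-DMa*, and of these *Cd74* and *H2-DMa* passed after adjustment over all genes.

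Levels of different genes were compared in TPM, a unit like CPM that also corrects for the length of each transcript. In vehicle cultures *H2-DMa* was at 56.1 ± 3.55 TPM, *Cd74* at 8.82 ± 0.767, *H2-DMb2* at 7.06 ± 0.715, *H2-Ab1* at 3.39 ± 0.456, *H2-DMb1* at 2.46 ± 0.789, *H2-Aa* at 1.96 ± 0.135, *H2-Eb1* at 1.38 ± 0.519 and *Ciita* at 0.0346 ± 0.0236. The libraries of *H2-Ab1* and *H2-DMb1*, of *H2-DMb1* and *H2-Aa*, and of *H2-Aa* and *H2-Eb1* overlapped, whereas the other neighbours did not. Within libraries, *H2-Ab1* was above *H2-DMb1* in 4 of 4 vehicle and 4 of 4 bilirubin cultures, *H2-DMb1* above *H2-Aa* in 3 of 4 and 0 of 4, and *H2-Aa* above *H2-Eb1* in 4 of 4 and 2 of 4, so the order of *H2-DMb1*, *H2-Aa* and *H2-Eb1* was not the same in every library. *H2-DMa*, a chain of the exchange factor, was above the classical chains that DM acts on in every library. With bilirubin *Cd74* was at 14.5 ± 2.82 TPM, *H2-DMa* at 46.8 ± 4.203, *H2-Aa* at 2.68 ± 0.660, *H2-Eb1* at 2.47 ± 0.932 and *H2-DMb1* at 1.68 ± 0.512, and the last 3 changed places in the order. *H2-DMb2* was at 7.07 ± 1.36 TPM and *H2-Ab1* at 3.47 ± 1.34. *Ciita* was at 0.141 ± 0.0349 TPM and remained the lowest. Reads were assigned to the reference of C57BL/6J, whose H2 haplotype differs from that of BALB/c. How far this moved the levels of the polymorphic chains was not tested, and both cultures of a mouse share it.

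**Figure D3:**
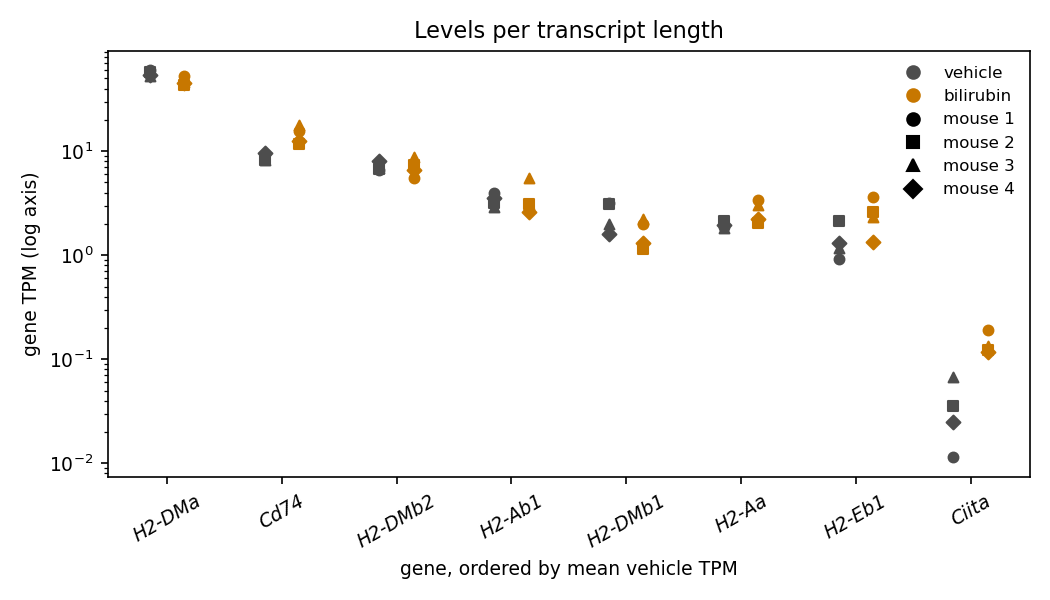
Gene TPM of the 8 genes in each library on a log axis, ordered by the mean of the vehicle cultures. Symbols are mice, grey is vehicle and orange is bilirubin. *H2-DMa* lies above the other genes in every library and *Ciita* below them.

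Within the genes, Salmon's assignment to single transcripts was examined for the leading transcript of each. An exact sign-flip permutation test over 4 mice cannot give a two-sided p below 0.125, so no share could pass. The coding transcript H2-Ab1-201 held 65.4%, 65.3%, 56.3% and 80.0% of the TPM of *H2-Ab1* in vehicle and 100%, 97.7%, 91.9% and 100% with bilirubin. The share was higher in 4 of 4 mice, by a mean of 30.7 points (exact p 0.125, 0.667 adjusted over 8 tests), or by 17.3 points when shares were taken of estimated counts (80.2% to 97.5%), and the remainder was assigned to retained-intron or non-coding transcripts. H2-DMb1-201 held 67.7 ± 25.6% in vehicle and 100% in each bilirubin library, because the retained-intron transcript H2-DMb1-202 had 17.4, 14.3, 4.70 and 0 counts in vehicle and 0 with bilirubin (exact p 0.25, 0.667 adjusted). Of estimated counts its share was 85.8 ± 12.1% in vehicle, a difference of 14.2 points. H2-Aa-201 held 99.5% of its gene's TPM in both groups. H2-DMa-205 held 89.6 ± 3.19% in vehicle and 90.3 ± 3.77% with bilirubin, and H2-DMb2-203 81.6 ± 13.3% and 75.3 ± 16.3%, differences smaller than the spread between mice.

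*Cd74* makes a short form and a long form, Cd74-202, which contains an extra exon of 192 bases at 60944366 to 60944557 on chromosome 18. The long form held 2.68%, 23.8%, 11.2% and 3.76% of *Cd74* TPM in vehicle and 19.7%, 13.3%, 4.75% and 18.9% with bilirubin. It was higher in mice 1 and 4 and lower in mice 2 and 3, and the mean difference of 3.78 points (exact p 0.625) is smaller than the spread between mice. For *H2-Eb1*, the coding transcript H2-Eb1-201 had 0 counts in all 8 libraries. Its reads were assigned to the coding transcript H2-Eb1-203, to the retained-intron transcripts H2-Eb1-202 and H2-Eb1-204 and to H2-Eb1-205, which is annotated for nonsense-mediated decay. How far the BALB/c sequence moved reads between reference transcripts of *H2-Eb1* and *H2-Ab1* was not tested. All vehicle counts of *Ciita* were assigned to Ciita-201. With bilirubin, Ciita-203 received 9.86 counts in mouse 2 and 8.67 in mouse 4, and Ciita-205 received 8.06 in mouse 1. With so few reads these shares do not show which *Ciita* promoter was used.

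The rest of the pathway was described with 39 genes listed by role, of which 38 were matched in the table and 35 were tested. With bilirubin 4 of the 35 rose and 4 fell, beside 4.49% and 3.04% of all tested genes. The median log2 fold change was 0.06. A difference from all tested genes was not tested. In the class II gene list *H2-Ea* alone was tested. *H2-Oa*, whose product inhibits DM together with that of *H2-Ob*, had 2 to 3 counts in vehicle and 4 to 8 with bilirubin, *H2-Ob* had 0 to 5 counts in any library, and *H2-Eb2* had 0 in all. Of 7 genes for factors that bind class II promoters, 1 changed: *Nfya*, a subunit of the Y box factor NF-Y, fell from 207 ± 3.50 to 180 ± 3.37 CPM (log2 fold change -0.20, adjusted p 0.00671 in edgeR's quasi-likelihood test), and it missed the threshold when mouse 3 (0.0705) or mouse 4 (0.0666) was dropped. *Rfx5*, which encodes the DNA-binding subunit on the X box, was at 11.96 ± 0.836 CPM in vehicle and 11.3 ± 1.53 CPM with bilirubin (adjusted p 0.575).

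Among 13 tested regulators of *Ciita*, 1 passed the threshold, and it rose, beside 4.49% of all tested genes that rose. *Ifngr2*, which encodes the signalling chain of the interferon gamma receptor, was at 94.4, 93.1, 93.9 and 93.1 CPM in vehicle and 117, 112, 118 and 117 CPM with bilirubin. The groups were far apart, with a log2 fold change of 0.31 (SE 0.03) and an adjusted p of 0.00114 in edgeR's quasi-likelihood test, and it passed under all 12 alternatives. *Irf1*, which encodes a transcription factor that acts on the *Ciita* promoter, had a log2 fold change of 0.29 (adjusted p 0.106 by edgeR). It is 1 of 12 regulators that did not pass. Their log2 fold changes went in both directions, from -0.24 to 0.36, and the median of the whole list was 0.08. Transcripts of *Ifng*, the gene of interferon gamma itself, were at 0 counts in all 8 libraries, which allows up to 3 counts in each.

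Of 11 genes for proteases, reductase and inhibitor of the lysosome, 2 rose and 2 fell, beside 4.49% and 3.04% of all tested genes. *Ctsz* (cathepsin Z) rose from 975 ± 40.7 to 1208 ± 67.4 CPM (log2 fold change 0.31, adjusted p 0.00336 by edgeR), and *Sppl2a*, whose product cleaves the membrane stub of the invariant chain, rose from 124 ± 2.57 to 140 ± 3.13 CPM (0.18, adjusted p 0.0210 by edgeR). *Ctsd* (cathepsin D) fell from 13858 ± 696 to 10883 ± 1010 CPM (-0.35, adjusted p 0.00192 by edgeR), and *Ctsh* (cathepsin H) fell from 84.6 ± 3.38 to 69.9 ± 8.15 CPM (-0.28, adjusted p 0.0412 by edgeR). Cathepsin S, the protease that makes the last cuts of the invariant chain in macrophages and dendritic cells, is encoded by *Ctss*, which was at 2510 ± 83.7 CPM in vehicle and 2436 ± 87.4 CPM with bilirubin (log2 fold change -0.04, adjusted p 0.624 by edgeR). *Ifi30*, the gene of the thiol reductase GILT, had a log2 fold change of 0.14 (adjusted p 0.0764 by edgeR). The calls of *Ctsz* and *Ctsd* held under all 12 alternatives. *Sppl2a* passed under 9 of 12, and its adjusted p by edgeR was 0.128 without mouse 3, 0.150 without mouse 4 and 0.106 with the length offset. *Ctsh* passed under 8 of 12, with 0.241 and 0.141 when mouse 3 or mouse 4 was dropped, 0.0527 with the pairing left out and 0.0834 with the length offset.

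The 3 genes for surface turnover of class II molecules went in different directions. *Marchf1*, which encodes the ubiquitin ligase that marks class II molecules for degradation, rose from 17.4 ± 2.18 to 21.2 ± 2.45 CPM (log2 fold change 0.28, adjusted p 0.0199 by edgeR). It passed under 7 of 12 alternatives, not with the pairing by mouse left out (adjusted p 0.179 by edgeR) or the length offset (0.0914), nor when mouse 2 (0.0691), mouse 3 (0.146) or mouse 4 (0.0774) was dropped. *Cd83*, whose product opposes that ligase, was at 18.3, 17.0, 16.001 and 16.2 CPM in vehicle and 13.9, 10.7, 7.45 and 11.3 CPM with bilirubin. It fell in 4 of 4 mice and most in mouse 3, with a log2 fold change of -0.66 (SE 0.11) and an adjusted p of 0.00850 in edgeR's quasi-likelihood test, and it passed under all 12 alternatives. *Marchf8*, a related ligase, was at 107 ± 1.76 CPM in vehicle and 96.6 ± 5.49 CPM with bilirubin, lower in 4 of 4 mice without overlap of the groups. Its log2 fold change of -0.15 had an adjusted p of 0.0513 in edgeR's quasi-likelihood test, just short of passing, and it passed under 6 of 12 alternatives.

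**Figure D4:**
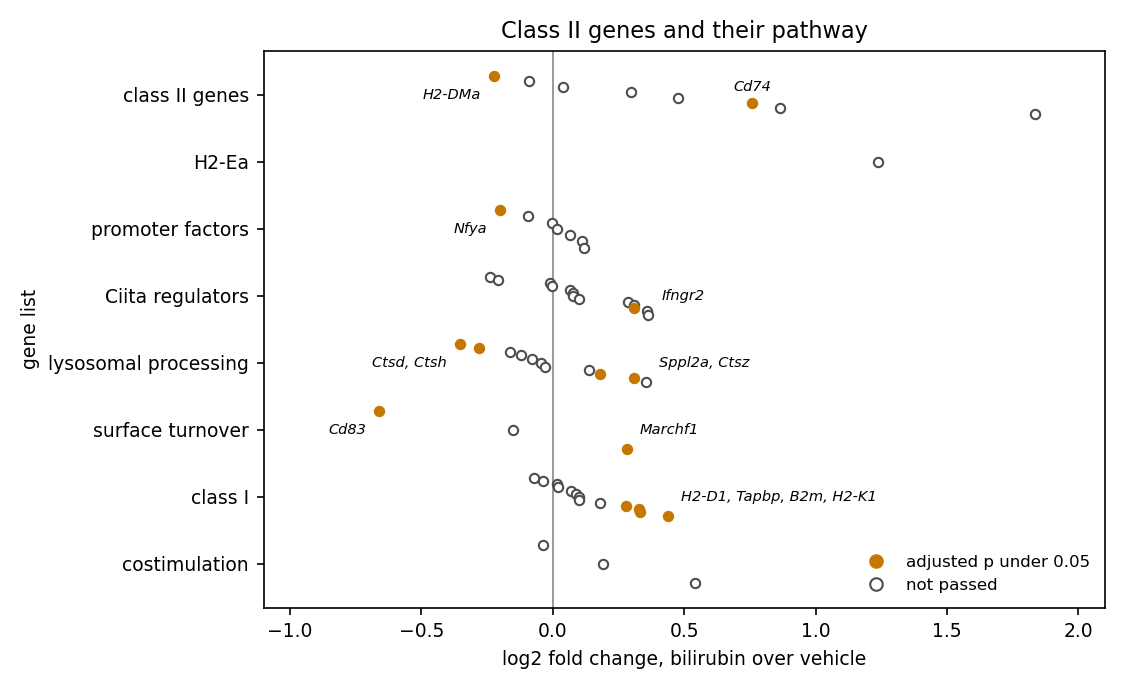
Log2 fold change of each tested gene, bilirubin over vehicle, by gene list. Each circle is 1 gene, filled and named where edgeR's adjusted p is under 0.05, and circles are spread vertically within a list for legibility. The class II genes range from -0.22 for *H2-DMa* to 1.84 for *Ciita*, which had few counts, and hold 1 gene called in each direction.

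Class I presentation genes, listed for comparison, had 4 of 13 tested genes past the threshold by edgeR, all of them upregulated. Over all tested genes 4.49% were upregulated. The median log2 fold change of the class I list was 0.10. The heavy chain genes *H2-K1* and *H2-D1* rose by 0.44 and 0.28 on the log2 scale (adjusted p 0.00101 and 0.00363 by edgeR), *B2m*, the shared light chain, by 0.33 (0.00443) and *Tapbp*, the chaperone tapasin, by 0.33 (0.00525). *Tapbp* alone of these missed the threshold under an alternative, at 0.0563 without mouse 3. These genes were at 249.6 to 920.4 CPM in vehicle, with SEs of 0.04 to 0.05 on the log2 scale, against 0.22 to 0.40 for the 3 classical class II chains. A difference between the lists was not tested. Of 3 costimulation genes *Cd40*, the receptor for CD40 ligand on T cells, had the smallest adjusted p by edgeR, 0.0652, at a log2 fold change of 0.54.

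Class II transcripts are abundant in B cells and dendritic cells, so the markers of other cells were read beside these values. All 8 macrophage markers were tested. Their summed level was 24111 to 24451 CPM in vehicle and 28567 to 30657 CPM with bilirubin. By edgeR 4 of these markers were upregulated (*Adgre1*, *Lyz2*, *Itgam* and *Cd14*), beside 4.49% of all tested genes. The other 4 did not pass and had log2 fold changes below 0, at -0.16 for *Cd68*, -0.20 for *Fcgr1*, -0.15 for *Mertk* and -0.02 for *Csf1r*. Most of the sum is *Lyz2*, the lysozyme gene, which went from 19145 ± 248 to 24369 ± 848 CPM (adjusted p 0.000513 by edgeR). Of 11 dendritic cell markers 2 had enough counts to be tested, with log2 fold changes of 0.08 and 0.25 that did not pass. Their summed level was 71.1 to 95.8 CPM in vehicle and 84.5 to 124 CPM with bilirubin, nearly all of it from *Itgax*, which macrophages also express. The defining marker *Flt3* had 0 to 1 counts in any library and *Ccr7* 0 to 4. *Zbtb46* had 3, 6, 2 and 0 counts in vehicle and 10, 6, 12 and 22 with bilirubin, a log2 fold change of 2.31 with an adjusted p of 0.0870 in the edgeR fit with no filter. Of 8 B cell markers 3 were tested, summed over the list at 45.0 to 51.7 CPM in vehicle and 35.3 to 52.9 CPM with bilirubin. *Pax5*, the B cell lineage factor, had 0 to 1 counts in any library, while *Ighm* fell from 2.33 ± 0.304 to 1.07 ± 0.398 CPM (log2 fold change -1.16, adjusted p 0.0114 by edgeR). In the T and NK cell list 4 of 9 genes were at 0 in all libraries and the sum was 0.458 to 0.742 CPM in vehicle and 0.598 to 1.27 CPM with bilirubin. Most of that sum is *Cd4*, at 0.436 to 0.662 CPM in vehicle and 0.524 to 1.24 CPM with bilirubin. What part the marker levels had in the class II values was not tested.

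The 8 genes had no single profile over the libraries. By Pearson's r of log2 CPM over the 8 libraries, *Cd74*, *H2-Aa*, *H2-Eb1* and *Ciita* correlated with one another at 0.65 to 0.89. *H2-DMa* correlated with each of them at -0.75 to -0.49. *H2-Ab1*, *H2-DMb1* and *H2-DMb2* each had r in both directions. These values include the shift between treatments. For deviations from the group means, r among *Cd74*, *H2-Aa*, *H2-Eb1* and *Ciita* was 0.11 to 0.72, and *H2-DMa* against them gave -0.11 to 0.52. The genes most like the mean profile of the 8 genes were sought among other tested genes averaging 1 or more on the log2 CPM scale. Pearson's r was again taken over the 8 libraries, which share 4 mice. The highest were *C920009B18Rik* (0.937), *Rapgef2* (0.926), *Cmip* (0.907), *Tbc1d10b* (0.893) and *Dnajc10* (0.891), given as a description only.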

How the data were processed

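RNA-seq of 8 BMDM libraries was analysed from the deposited tables. Per the methods and the submitters' notes, the authors trimmed reads with Trim Galore 0.6.7 and Cutadapt 3.4, aligned them with STAR 2.7.9a to GRCm39, quantified transcripts with Salmon 1.10.1 and summed them per gene with tximport. The authors deposited per gene the expected (estimated) counts, 88.5% of which are whole, without normalization, and per library the estimated counts and TPM of each transcript. Summed transcript counts equalled the gene table.

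Estimated counts were rounded and tested with edgeR 4.0.16 in R 4.3.3. Genes were kept by filterByExpr (at least 10 counts, 15 in total), scaled by TMM and fitted with mouse and treatment, the authors' covariate. Benjamini-Hochberg adjustment covered 13722 genes. CPM used TMM scaling, and log2 CPM of a mouse a prior count of 2. An SE is the absolute log2 fold change over the root of its F value. Depth was 34142781 to 47071714 counts per library, and a count of 0 allows up to 3 counts, for counting error only. Gene positions and transcript types are those of GENCODE on GRCm39, and promoters those of RefSeq on GRCm38.p6.

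Cultures were paired by the culture number in the labels, read as the mouse because the paper describes marrow of 4 mice. Deviations from the group means correlated by a mean of 0.0862 within a mouse (from -0.0053 to 0.134) and -0.0279 between mice. Correlations this weak do not establish the pairing by themselves.

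All 8 genes are named in the tests and levels. Of the pathway lists, genes past the threshold were named, and in any case *H2-Ea*, *Ctss*, *Ifi30*, *Irf1* and *Rfx5*. Of the comparison lists at most 4 genes with the smallest adjusted p were named. *Marchf8*, *H2-Oa*, *H2-Ob*, *H2-Eb2*, *Ifng* and the single markers were named after their values were seen. The 8 genes and all lists were chosen with earlier results of these data known. Granulocyte markers (2 of 8 tested) and stromal markers (3 of 6 tested) were read as well and gave sums of 0.124 to 2.19 and 2.21 to 8.00 CPM.

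Alternatives were DESeq2's size factors, library size alone, no filter, a CPM above 1 in 4 libraries, no pairing, DESeq2 1.42.0, limma-voom 3.58.1, a transcript length offset and each mouse left out. Scripts were tested on simulated data with known changes. There, 82.8% of changed genes were recovered at a true log2 fold change of 1 and 99.0% at 2. The share of false calls was 11%, above what the threshold aims at, so calls near the threshold are less certain. The authors' own comparisons and raw reads were not used here. The results of 2 listed genes are not reported here.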

Additional observations from a re-analysis of the deposited data

How the results depend on the processing

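Of the 8 genes, *Cd74* was called higher under all 12 alternatives, and with no filter 2 genes were called higher, *Ciita* being the second. *H2-DMa* was the 1 gene called lower. The number called lower was 0 without the replicate block (pairing by mouse left out), when *H2-DMa* had an adjusted p of 0.0519 by edgeR, and 0 with the transcript length offset, and 0 to 1 with each mouse left out. Without the replicate block 458 genes rose and 228 fell over the whole table, against 616 and 417 with it. Which mice were included moved these totals most, from 265 and 112 without mouse 3 to 1026 and 884 without mouse 1, and they were 419 and 215 without mouse 2, 302 and 139 without mouse 4, 377 and 211 with the length offset and 918 and 774 with no filter. Of the pathway genes, 4 rose and 4 fell, which became 10 and 8 with no filter. With the length offset 2 rose, and with each mouse left out 2 to 8 rose and 2 to 7 fell, the higher counts without mouse 1 and the lower ones without mouse 3 or mouse 4. The causes were not tested.

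With each mouse left out, the log2 fold change of *H2-Ab1* was -0.050 (without mouse 3) to 0.47, that of *H2-DMb1* -0.28 to 0.088 (without mouse 2) and that of *H2-DMb2* -0.087 (without mouse 3) to 0.13, so their directions rest on single mice. *H2-DMb2* was at -0.01 without mouse 2, and with the length offset *H2-DMb1* was at -0.51 and *H2-Ab1* at 0.02. Likewise the long form of *Cd74* moved by -0.632 (without mouse 1) to 8.55 percentage points, against 3.78 with all mice, and the share of H2-DMa-205 by -1.95 (without mouse 2) to 3.09 points, against 0.721 with all mice and -0.182 without mouse 3. The order of levels was the same for 8 of 8 genes when counts were divided by effective length. Depth limits *Ciita* most, at 2 to 21 counts per library. *H2-Eb1*, *H2-DMb1*, *H2-Aa* and *H2-Ab1* had 20.3 to 151 counts. With 4 pairs, transcript shares could not reach the threshold.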
